A study of Homo sapiens with 4 samples.

Results

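The cytosolic heat shock genes are a set of 10 genes, HSF1, HSPA1A, HSPA1B, HSPA8, HSPH1, DNAJB1, HSP90AA1, HSP90AB1, HSPB1 and BAG3, chosen by symbol for their function. All 10 were found among the 23362 genes of the deposited expression table, and each symbol had a single row. RNAseq was performed on poly(A) RNA of MKN28, a gastric adenocarcinoma cell line of human origin, with 1 library for each of 4 groups. Luc cells carry a luciferase construct and are the general control, WT cells carry KIAA1324, 3NQ cells carry KIAA1324 with the asparagines of 3 N-glycosylation sites replaced by glutamine, and ΔTM cells are labelled as carrying KIAA1324 without its transmembrane domain. All 4 lines hold their construct in a doxycycline-dependent tet-on retroviral system and were selected with G418 and puromycin, and the sources used here do not state a doxycycline treatment for the RNA samples. Nor do they state whether a line is 1 clone.

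The heat shock response is the stress programme of the cytosol and nucleus. Misfolded proteins draw HSP70 and HSP90 chaperones away from the transcription factor HSF1, which then forms trimers, binds heat shock elements in promoters and raises the transcription of chaperone genes. The endoplasmic reticulum has a separate programme, the unfolded protein response, with its own sensors and its own chaperones of the same families. KIAA1324 is a membrane protein that is made and glycosylated in the endoplasmic reticulum, and the 10 genes were listed to set the cytosol apart from that organelle.

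A heat shock element is built from 5-base units with GAA at their centre that alternate in orientation. The promoters of 9 of the 10 genes were in the RefSeq table of 300-base promoters (GRCh38.p14, 250 bases before the start site), and HSF1 was not. The exact letters of 2 adjoining units, GAANNTTC or TTCNNGAA (each its own reverse complement), were found in 8 of the 14 promoters listed for these genes, belonging to 7 genes, and in 13.5% of all 35116 promoters in the table. A run of 3 units, GAANNTTCNNGAA or its reverse complement TTCNNGAANNTTC, which contains both forms of 2 units, was found in 3 of the 14 promoters, those of HSPA8, HSP90AA1 and HSP90AB1, and in 0.490% of all promoters. The promoters of BAG3 and HSPH1 held neither. These are letter matches in windows of fixed length and not measured binding. Below are a match for each of the 3 genes with 3 units, those of DNAJB1 and HSPB1, whose levels differed most between libraries among the 9 genes that reached an FPKM of 1, and those of the near-identical HSPA1A and HSPA1B. The capitals mark the units, all are 5′ to 3′ on the gene's strand, and the positions are the single exact match of each sequence on GRCh37, the build of the deposited table.
HSPA8 (chr11:122932879-122932907, minus strand): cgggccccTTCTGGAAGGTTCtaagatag
HSP90AA1 (chr14:102553422-102553489, minus strand): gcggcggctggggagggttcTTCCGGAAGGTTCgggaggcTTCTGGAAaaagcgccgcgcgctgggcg
HSP90AB1 (chr6:44215495-44215547, plus strand): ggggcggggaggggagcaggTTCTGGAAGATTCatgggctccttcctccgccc
DNAJB1 (chr19:14629229-14629306, minus strand): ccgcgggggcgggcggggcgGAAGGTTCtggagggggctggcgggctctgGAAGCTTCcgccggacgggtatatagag
HSPB1 (chr7:75931788-75931835, plus strand): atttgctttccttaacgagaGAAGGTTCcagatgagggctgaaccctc
HSPA1A (chr6:31783194-31783241, plus strand): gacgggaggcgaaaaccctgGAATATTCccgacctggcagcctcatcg
HSPA1B (chr6:31795390-31795437, plus strand): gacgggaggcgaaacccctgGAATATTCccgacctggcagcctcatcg

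In the GENCODE annotation on GRCh37, the windows of HSPA1A, HSPA1B and HSPB1 lie outside all coding transcripts of their gene. Those of HSP90AA1, HSP90AB1 and DNAJB1 lie upstream of 1 start site and in an intron of transcripts that start further upstream, and that of HSPA8 overlaps an exon of 1 coding transcript.

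The authors' values are FPKM, fragments per kilobase of transcript scaled to the mapped fragments of the library, so that levels of different genes can be set side by side. The FPKM of all genes summed to between 560540 and 585104 in a library. The number of reads behind a value is not in the table, so the depth is unknown and no interval can be given. KIAA1324 was at FPKM values of 2.86 (Luc), 11185 (WT) and 8197 (3NQ). In the ΔTM-labelled library it was listed at 0, below even Luc, whose construct is luciferase. That value does not bear out the label, but a listed 0 can be a failed estimate. The label could therefore be neither borne out nor refuted with this gene, and every value given for that library rests on the label. EPCAM, CDH1, KRT8, KRT18 and KRT19, markers of epithelial cells, were at FPKM values of 233 or more in every library, whereas PTPRC, CD14, CD3E and COL1A2 were at most 0.222, COL1A1 was between 12.1 and 15.3, and PECAM1 was not found by its symbol. KRT8 ran from 4510 in WT to 8501 in Luc and KRT18 from 2115 in WT to 3684 in Luc, and their part in the results was not tested.

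Since each group is 1 library, none of the differences has a replicate behind it, and p-values were not computed. Log2 ratios were taken of FPKM + 1, where the pseudocount of 1 understates the change of low genes. Over the 11769 genes that reached an FPKM of 1 in some library, a gene was called where its ratio reached 1.5-fold, a log2 ratio of 0.585 in either direction. Of the 10 heat shock genes, 9 passed this filter, and HSPA1A did not. In bulk RNA, fewer cells expressing a gene and less RNA of it per cell cannot be told apart.

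None of the 9 genes that passed the filter was called higher or lower than Luc in WT, in 3NQ or in the ΔTM-labelled library, and HSPA1A did not reach the threshold either. Over all genes tested, 6.70% were called in WT, 4.34% in 3NQ and 3.11% in the ΔTM-labelled library, and among the 5543 genes that reached an FPKM of 20, the shares were 5.07%, 3.12% and 2.29%. Each of these shares corresponds to fewer than 1 gene in 10, so that a count of 0 among 10 genes is near the background. Their median log2 ratio was 0.044 (WT), 0.033 (3NQ) and 0.030 (ΔTM-labelled), where the median of all genes tested was −0.0049, −0.038 and −0.060. In each of the 3 comparisons, 6 of the 10 genes were above Luc and 4 below, a division that stayed the same in WT under each of 3 rescalings and became 7 or 8 above Luc under some of them in 3NQ and the ΔTM-labelled library. The 3 comparisons share the Luc library.

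**Figure D1:**
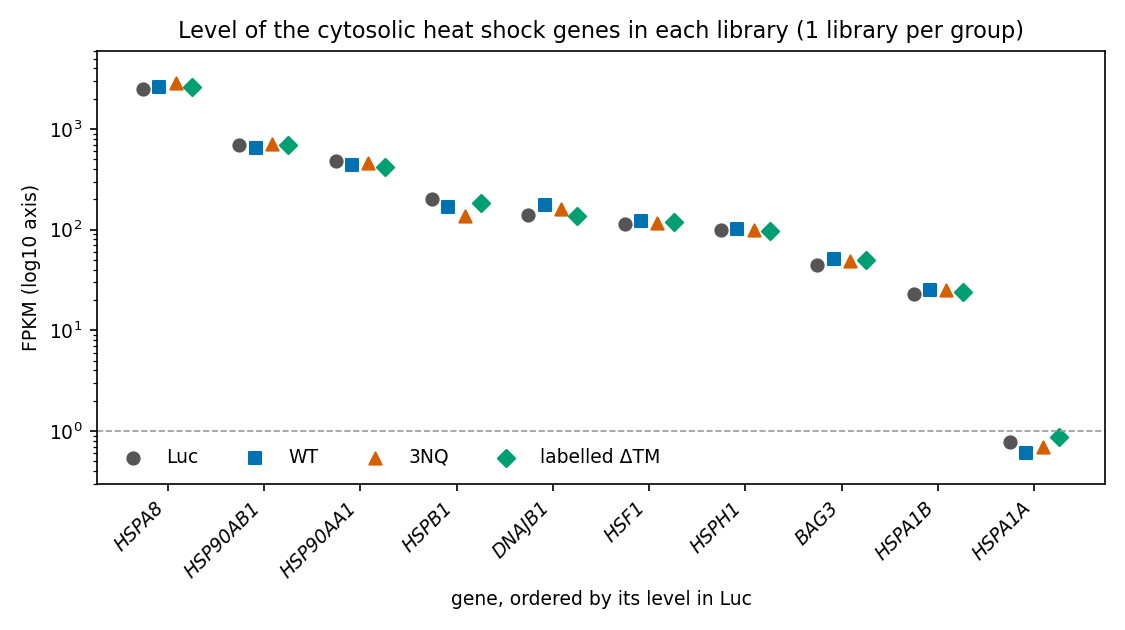
FPKM (log10 axis) of the 10 cytosolic heat shock genes, ordered by their level in Luc, with 1 point for each library (circle Luc, square WT, triangle 3NQ, diamond the ΔTM-labelled library) and a dashed line at an FPKM of 1. The 4 points of a gene lie close together, from HSPA8 at 2478 to 2855 down to HSPA1A at 0.608 to 0.875, while the genes differ from each other by orders of magnitude.

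Together the 10 genes held 0.744% of the summed FPKM in Luc, 0.766% (WT), 0.789% (3NQ) and 0.772% (ΔTM-labelled). HSPA8 alone made up 57.9% to 61.8% of that sum. The order of levels was the same in Luc and in the ΔTM-labelled library, namely HSPA8, HSP90AB1, HSP90AA1, HSPB1, DNAJB1, HSF1, HSPH1, BAG3, HSPA1B and HSPA1A. In WT and 3NQ, DNAJB1 stood above HSPB1, and the rest of the order was as in Luc. Without replicates, there is no spread within a group against which neighbours in this order could be compared.

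HSF1 (ENSG00000185122, chromosome 8 of GRCh37 from 145515280 to 145538385), the transcription factor of the response, was measured at FPKM values of 114 (Luc), 121 (WT), 118 (3NQ) and 119 (ΔTM-labelled). Its highest FPKM was 1.06-fold its lowest. Its activity is set by trimer formation and phosphorylation, which RNA levels do not measure. Of the genes that reached an FPKM of 20, 2.60% varied less over the 4 libraries than HSF1.

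HSPA8 (ENSG00000109971, chromosome 11 from 122928197 to 122933938), the constitutive HSP70 of the cytosol, was the most abundant of the 10 genes and among the 14 most abundant of all genes in every library. It was measured at FPKM values of 2478 (Luc), 2589 (WT), 2855 (3NQ) and 2593 (ΔTM-labelled). The 3 other libraries were above Luc, with log2 ratios of 0.063, 0.20 and 0.065 in the same order. Against the averaged mutants, WT was at −0.073. In 3NQ, 36.6% of all genes tested had as large a ratio in either direction.

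HSPA1A and HSPA1B, on chromosome 6 from 31783291 to 31785717 and from 31795512 to 31798031, encode the stress-inducible HSP70, whose RNA is low in unstressed cells and increases strongly on heat shock. Both have a single exon. HSPA1B was measured at FPKM values of 23.2 (Luc), 25.1 (WT), 25.1 (3NQ) and 23.9 (ΔTM-labelled). HSPA1A was measured at FPKM values of 0.771, 0.608, 0.693 and 0.875 in the same order, under the filter of 1 in every library.

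The division of reads between these copies is uncertain, since 75.1% of the 50-base windows of the HSPA1A transcript are found without mismatch in that of HSPA1B. HSPA1A held 2.36% to 3.53% of the FPKM of the pair. Summed over both, the FPKM was 24.0 (Luc), 25.7 (WT), 25.8 (3NQ) and 24.8 (ΔTM-labelled), a sum that depends little on how shared reads were divided, since the transcripts are of like length, 2400 and 2517 bases. The summed level was lowest in Luc, and HSPA8 was between 100.7-fold and 110.5-fold higher on the FPKM scale.

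HSPA6, another stress-inducible HSP70 that is almost silent without stress, was named after its values were seen. It was measured at FPKM values of 0.0943 (Luc), 0.642 (WT), 0.333 (3NQ) and 0.261 (ΔTM-labelled). All 4 values were under the filter, and Luc was the lowest of them.

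HSPH1 (ENSG00000120694, chromosome 13 from 31710762 to 31736525), an HSP110 that exchanges the nucleotide of HSP70, varied least of the 10 genes. Its FPKM was 100.3 (Luc), 102.0 (WT), 99.3 (3NQ) and 97.3 (ΔTM-labelled), and its sign in 3NQ and the ΔTM-labelled library turned under 2 of the rescalings. Of the genes that reached an FPKM of 20, 1.62% varied less. BAG3 (ENSG00000151929, chromosome 10 from 121410882 to 121437331), which links HSP70 to HSPB proteins and to autophagy, was measured at FPKM values of 44.6 (Luc), 51.3 (WT), 49.0 (3NQ) and 50.5 (ΔTM-labelled). Luc was the lowest of the 4 libraries for BAG3, and the other 3 lay within 2.32 FPKM of each other. The log2 ratio of BAG3 to Luc was 0.20 (WT), 0.13 (3NQ) and 0.18 (ΔTM-labelled).

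HSP90AA1 (ENSG00000080824, chromosome 14 from 102547075 to 102606036), the inducible cytosolic HSP90, was measured at FPKM values of 480.4 (Luc), 443 (WT), 465 (3NQ) and 422 (ΔTM-labelled), so that Luc was the highest. HSP90AB1 (ENSG00000096384, chromosome 6 from 44214824 to 44221620), the constitutive cytosolic HSP90, was measured at FPKM values of 693, 651, 706 and 701 in the same order, with WT the lowest. The constitutive form was the more abundant in every library, by 1.44-fold (Luc), 1.47-fold (WT), 1.52-fold (3NQ) and 1.66-fold (ΔTM-labelled). The log2 ratios to Luc lay between −0.19 and 0.028 for both genes. That of HSP90AA1 in 3NQ was −0.046 and turned positive when rescaled by the upper quartile.

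DNAJB1 (ENSG00000132002, chromosome 19 from 14625582 to 14640582), the J-domain protein that stimulates the ATPase of HSP70, was measured at FPKM values of 139 (Luc), 176 (WT), 162 (3NQ) and 135 (ΔTM-labelled). WT and 3NQ were above Luc and the ΔTM-labelled library. The log2 ratio to Luc was 0.33 (WT), 0.22 (3NQ) and −0.042 (ΔTM-labelled), the last of which turned positive with the FPKM rescaled by upper quartile or by median of ratios. In WT, 22.8% of all genes tested had as large a ratio.

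HSPB1 (ENSG00000106211, chromosome 7 from 75931861 to 75933612), a small heat shock protein that binds unfolding proteins without ATP, varied most of the 10 genes, at 1.48-fold between its highest and lowest FPKM. Its FPKM was 204 (Luc), 167 (WT), 138 (3NQ) and 183 (ΔTM-labelled), so that Luc was the highest and 3NQ the lowest. The log2 ratio to Luc was −0.29 (WT), −0.56 (3NQ) and −0.15 (ΔTM-labelled). The ratio in 3NQ, 0.677-fold of Luc, is just short of the threshold, and 4.86% of all genes tested had as large a ratio there. When the FPKM were rescaled to the same sum in each library, it was −0.59 and passed. Against the averaged mutants, the ratio of WT was 0.057, a change of direction. DNAJB1 and HSPB1 lay on opposite sides of Luc in WT and 3NQ, and the FPKM of HSPB1 was 1.46-fold that of DNAJB1 (Luc), 0.948-fold (WT), 0.849-fold (3NQ) and 1.35-fold (ΔTM-labelled).

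**Figure D2:**
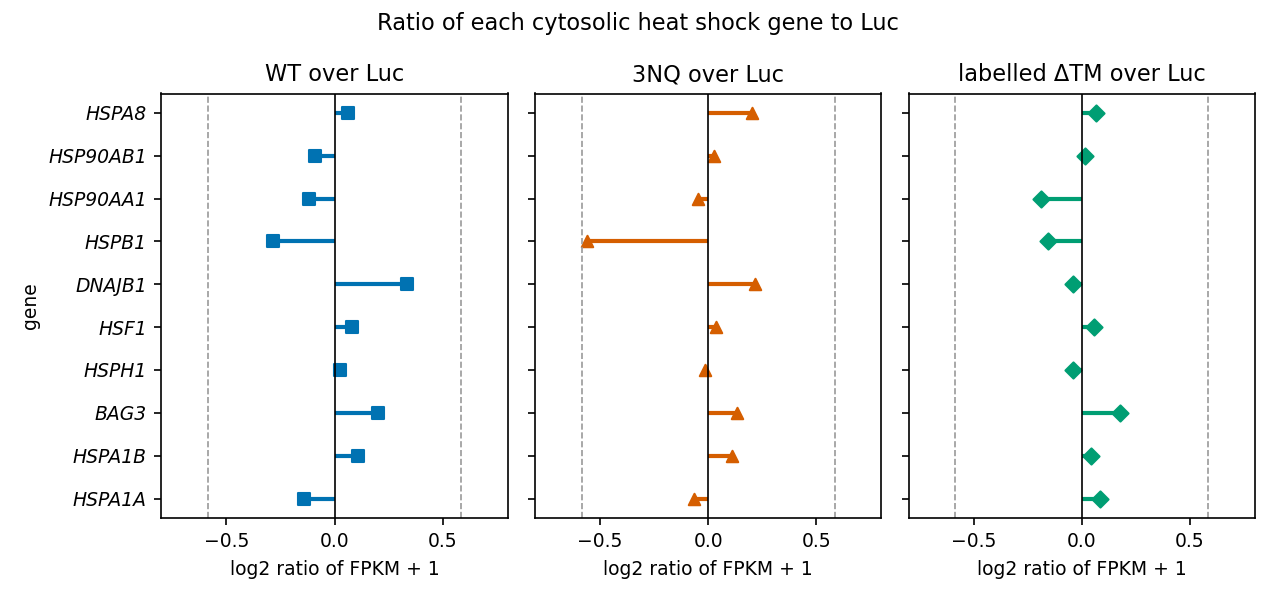
Log2 ratio of FPKM + 1 to Luc of each of the 10 genes in WT, 3NQ and the ΔTM-labelled library, with dashed lines at 1.5-fold. All points lie inside the lines, the farthest being HSPB1 in 3NQ at −0.56 and DNAJB1 in WT at 0.33.

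A lower threshold of 0.32 on the log2 scale called 1 of the 10 genes in WT, DNAJB1 as higher, 1 in 3NQ, HSPB1 as lower, and none in the ΔTM-labelled library. The share of all genes tested past that threshold was 24.2% (WT), 18.7% (3NQ) and 13.5% (ΔTM-labelled). With only 9 genes past the filter, these counts are near the shares and are not read as a deficit.

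The libraries with KIAA1324 constructs were also compared with each other, without Luc. None of the 10 genes was called between WT and 3NQ, between WT and the ΔTM-labelled library or between 3NQ and that library, where 4.47%, 7.16% and 3.34% of all genes tested were called. Their median log2 ratio was 0.018 for WT over 3NQ, 0.022 for WT over the ΔTM-labelled library and 0.020 for 3NQ over that library. The most distant values were those of DNAJB1 for WT over the ΔTM-labelled library, 0.38, and of HSPB1 for 3NQ over that library, −0.41.

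The spread of each gene was taken as the log2 of its highest over its lowest FPKM + 1 among the 4 libraries. Its median was 0.19 over the 10 genes, 0.31 over all genes tested and 0.27 over the genes that reached an FPKM of 20. Neither set was matched in level to the 10 genes, most of which were well above an FPKM of 20. HSPA1A, at 0.22, is held down by the pseudocount at its low level, and without one its highest FPKM was 1.44-fold its lowest, above the 1.30-fold of DNAJB1. The values of the other genes ran from 0.067 for HSPH1 to 0.56 for HSPB1, and 88.8% of the genes that reached an FPKM of 20 varied less than HSPB1.

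**Figure D3:**
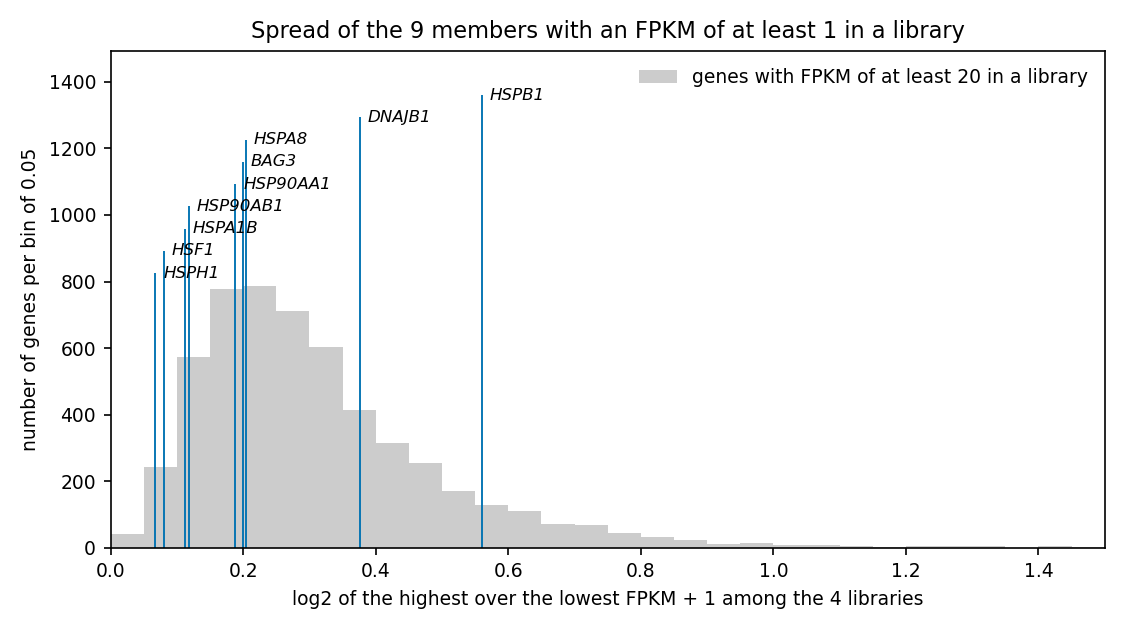
Number of genes (y axis, bins of 0.05) by the log2 of the highest over the lowest FPKM + 1 among the 4 libraries (x axis) for the 5543 genes that reached an FPKM of 20, with lines, whose height carries no value, for the 9 heat shock genes that passed the filter; 82 genes lie beyond the right edge. HSPH1, HSF1, HSPA1B and HSP90AB1 lie in the left tail, and DNAJB1 at 0.38 and HSPB1 at 0.56 to the right of the peak.

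By the rule for genes of like pattern, the 3 genes whose 3 ratios to Luc were nearest to those of HSPB1 were HERC5, ZNF703 and NAE1, at Euclidean distances of 0.041, 0.093 and 0.10 on the log2 scale among 5131 genes with a mean FPKM of at least 20. HERC5 was measured at FPKM values of 94.6 (Luc), 78.1 (WT), 65.4 (3NQ) and 83.7 (ΔTM-labelled). A likeness over 4 libraries that share 1 control is a description only.

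The partners of these genes in the cytosol were followed with lists written from general knowledge. Of 12 J-domain cochaperones listed as cytosolic, a location not checked for each, all passed the filter. Of these, 1 was called against Luc, in WT, where 6.70% of all genes were called. It was DNAJB2, a neuron-enriched J-domain protein that passes HSP70 clients to the proteasome. DNAJB2 was measured at FPKM values of 72.8 (Luc), 111 (WT), 81.9 (3NQ) and 77.5 (ΔTM-labelled), with a log2 ratio of 0.60 in WT, and with a pseudocount of 5 or against the averaged mutants no gene of this list was called in WT. DNAJC9, the lowest of this list in WT among genes with an FPKM of at least 5, had a log2 ratio of −0.11. The median of the list was 0.080 (WT), 0.061 (3NQ) and 0.016 (ΔTM-labelled).

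Against Luc, 6.70% (WT), 4.34% (3NQ) and 3.11% (ΔTM-labelled) of all genes tested were called. Here and in the lists that follow, a count of 0 is near these shares. Of the 12 HSP90 cochaperones, 11 passed the filter and none was called in the 3 comparisons to Luc. In WT they ran from CACYBP, a partner of ubiquitin ligases and of HSP90 client handling, at −0.52 to SUGT1, a cochaperone in kinetochore assembly and innate immune sensing, at 0.33. Of 8 exchange and adaptor factors of HSP70, 7 passed and none was called, and all 7 were below Luc in WT, from BAG1 at −0.23 to STUB1, the ubiquitin ligase CHIP, at −0.073. In 3NQ, 3 of the 7 were above Luc, or between 1 and 5 after rescaling. Of 5 further HSP70 and HSP110 genes, 4 passed, none was called and all 4 were below Luc in each of the 3 comparisons, except for HSPA14 in 3NQ when rescaled by the upper quartile, from HSPA4L at −0.47 to HSPA4 at −0.048 in WT.

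Of 9 further genes listed as small heat shock proteins, HSPB8 and HSPB11 passed the filter and neither was called. HSPB8, the partner of BAG3, had a log2 ratio of 0.38 (WT), 0.25 (3NQ) and 0.31 (ΔTM-labelled), and its FPKM was 24.2 in Luc and at least 28.9 in the other 3 libraries. HSPB11, which is on this list by its symbol, was at −0.0073 in WT and above Luc in the other libraries. Of 5 genes for other heat shock factors and their partners, 3 passed and none was called, with HSF2 at −0.31 and HSBP1 at −0.21 in WT. All 14 subunits of the chaperonin TRiC and of prefoldin, which fold actin and tubulin, passed, and none was called against Luc, from CCT4 at −0.27 to PFDN4 at 0.17 in WT.

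A list of 14 other textbook HSF1 targets, of which 13 passed, had no call in any of the 3 comparisons to Luc. Of all genes tested, 6.70%, 4.34% and 3.11% were called there, so that a count of 0 is near the background. Most genes of this list also belong to the cytosolic or mitochondrial lists given here, so that it is not a separate set. Its median log2 ratio was 0.071 (WT), 0.0035 (3NQ) and −0.021 (ΔTM-labelled). The lowest in WT was HSPA4L, named above with the further HSP70 and HSP110 genes, at −0.47.

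Between the KIAA1324 libraries, the cytosolic and mitochondrial lists held 3 calls. DNAJB5, of the J-domain list, was called lower in WT than in the ΔTM-labelled library, at a log2 ratio of −0.73 and FPKM values of 2.38 and 4.62, as 1 of 12 genes where 7.16% of all genes were called. CCT5 and CCT7, subunits of TRiC, were called higher in 3NQ than in the ΔTM-labelled library, at log2 ratios of 0.59 and 0.70, as 2 of 14 genes where 3.34% of all genes were called.

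Chaperones of the other compartments were measured in the same libraries, where 6.70% (WT), 4.34% (3NQ) and 3.11% (ΔTM-labelled) of all genes tested were called against Luc. Of 17 endoplasmic reticulum chaperones and partners of the unfolded protein response, all passed the filter, and 4 were called higher in WT, 15 in 3NQ and 16 in the ΔTM-labelled library, with none lower. The 4 in WT were HSPA5, DNAJB9, DNAJC3 and HERPUD1, the exceptions in 3NQ were CALR and P4HB, and the exception in the ΔTM-labelled library was P4HB. The median log2 ratio of the list was 0.19 (WT), 1.07 (3NQ) and 1.22 (ΔTM-labelled). Of the same 17 genes, 13 were lower in WT than in 3NQ and 13 lower in WT than in the ΔTM-labelled library, and between 3NQ and that library DNAJB9 was higher in 3NQ and CALR lower. In the same order, 4.47%, 7.16% and 3.34% of all genes tested were called between these libraries. The ratios of the list to Luc in WT ran from HSP90B1 at −0.20 to DNAJB9, a J-domain protein of the organelle, at 1.14. Earlier results of these data had already shown a change in this list, and its counts stand here beside those of the cytosolic genes. Of 8 mitochondrial chaperones, 7 passed and none was called, with medians of −0.013, 0.13 and 0.015, and in WT they ran from HSCB at −0.31 to GRPEL1 at 0.088.

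Members of 1 chaperone family in different compartments were set side by side. The HSP70 of the endoplasmic reticulum, HSPA5 (GRP78), was measured at FPKM values of 318 (Luc), 521 (WT), 1114 (3NQ) and 1028 (ΔTM-labelled), with log2 ratios of 0.71, 1.80 and 1.69, where HSPA8 of the cytosol was at 0.063, 0.20 and 0.065 and HSPA9 of the mitochondrion at most 0.13. HSP90B1, the HSP90 of the endoplasmic reticulum, had log2 ratios of −0.20, 0.85 and 1.22, where HSP90AA1 was at −0.12, −0.046 and −0.19. HSP90AB1, also of the cytosol, was at −0.090, 0.028 and 0.017, and TRAP1 of the mitochondrion at 0.053, 0.21 and −0.092. HYOU1, the HSP110 of the endoplasmic reticulum, had ratios of 0.26, 1.37 and 1.51, where HSPH1 was at 0.025, −0.013 and −0.043. DNAJB11, a J-domain partner of HSPA5, had ratios of 0.19, 0.98 and 1.14, where DNAJB1 was at 0.33, 0.22 and −0.042. DNAJA3 of the mitochondrion was at −0.013, 0.19 and 0.051. With 1 library per group, the difference between the compartments was not tested.

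**Figure D4:**
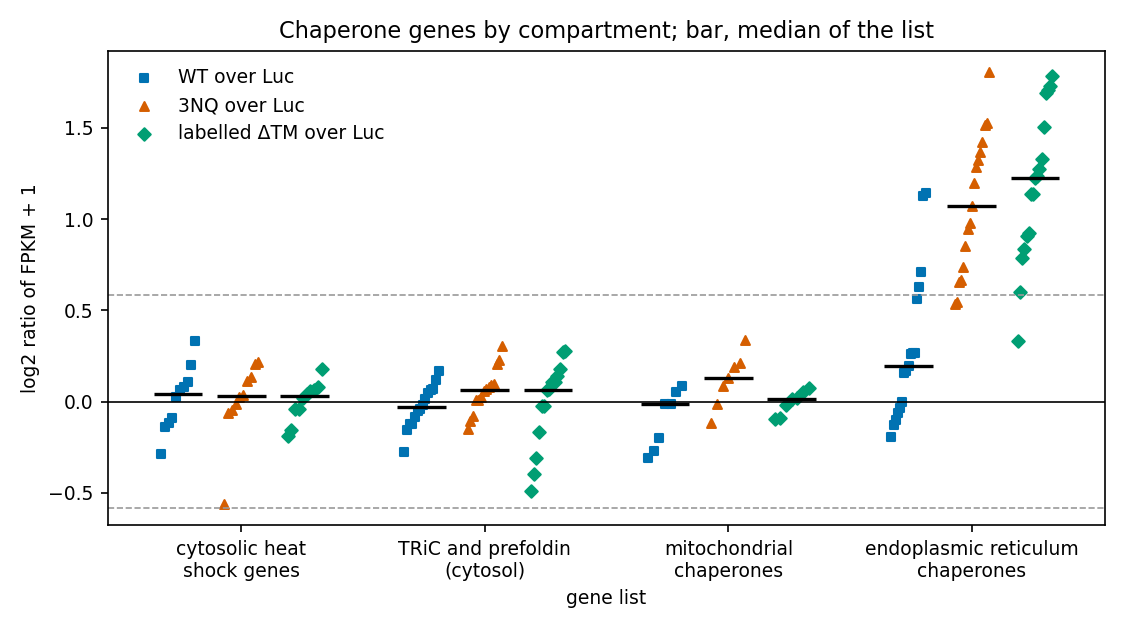
Log2 ratio of FPKM + 1 to Luc (y axis) of each gene of 4 lists in WT (squares), 3NQ (triangles) and the ΔTM-labelled library (diamonds), with the median of each list as a bar and dashed lines at 1.5-fold; the first list shows all 10 cytosolic heat shock genes, the others the genes that passed the filter. The cytosolic heat shock, TRiC and prefoldin, and mitochondrial lists have medians between −0.03 and 0.13, and the endoplasmic reticulum list has medians of 0.19, 1.07 and 1.22.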

How the data were processed

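Poly(A) RNA of 4 MKN28 lines was sequenced by the authors as 1 library each. Per the labels and the methods, reads were filtered on undetermined bases and base quality and mapped to GRCh37 (Ensembl release 72) with TopHat, and Cufflinks 2.1.1 gave the deposited FPKM with non-coding regions masked and multi-read and fragment bias correction. The deposited FPKM therefore depend on how Cufflinks shared reads between near-identical copies. Depth is unknown.

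Log2 ratios of FPKM + 1 and figures were made with pandas 2.3.3, numpy 2.4.6 and matplotlib 3.10.9 (Python 3.11.15). Of repeated symbols (166 rows), the row with the highest mean FPKM was taken. There was no test, because each group had 1 library, and 1.5-fold served as the threshold. The steps were tested on simulated data. The alternatives were other pseudocounts, thresholds, filters, scalings and controls, summed repeats, HSPA1A and HSPA1B summed, and the genes without HSF1.

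The 10 genes and the 10 further lists were chosen with earlier results of these data known. Named singly were the 10 genes, KIAA1324, of each list the highest and lowest ratio in WT among genes with an FPKM of at least 5, genes past 1.5-fold against Luc (of the endoplasmic reticulum list, only a part), and the 3 genes nearest to the member with the largest ratio. HSPA6, HSPA9, HSPA14, TRAP1, DNAJA3, DNAJB5, CCT5, CCT7 and P4HB fall outside this rule and were chosen after their values were seen. A single value that this rule names is not reported here. Promoters came from RefSeq (GRCh38.p14), and GRCh37 positions from exact matches.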

Additional observations from a re-analysis of the deposited data

How the results depend on the processing

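No paired analysis was possible because each group has 1 library. The median log2 ratio of the heat shock genes stayed above 0 and under 0.1 under each alternative that recomputes it. These alternatives include HSPA1A and HSPA1B summed and the set without HSF1, each with 1 gene fewer. All are ratios to Luc, except that WT was also set against the averaged mutants. The median ran from 0.025 to 0.071 in WT, 0.0082 to 0.090 in 3NQ and 0.017 to 0.096 in the ΔTM-labelled library. Between the KIAA1324 libraries, it ran from −0.042 to 0.069. Of the genes' single ratios, only HSPB1 in 3NQ changed side of 1.5-fold, to −0.59 with the FPKM rescaled to the same sum, where 1 gene was lower. A threshold of 0.32 on the log2 scale gave 1 gene higher in WT, 1 lower in 3NQ, 1 higher for WT over the ΔTM-labelled library and 1 lower for 3NQ over that library.

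Among the lists, the same threshold gave, for WT, 3NQ and the ΔTM-labelled library where it moved the count, 1 and 2 further HSP70 and HSP110 genes, 3, 1 and 1 HSP90 cochaperones, 3, 1 and 1 HSF1 targets, 1 small heat shock protein (WT), 1 heat shock factor gene and 1 mitochondrial chaperone (3NQ), and 1 J-domain gene and 2 TRiC genes (ΔTM). HSPA4L is counted there both as a further HSP70 or HSP110 gene and as an HSF1 target in WT and 3NQ. At 2-fold, 2 endoplasmic reticulum chaperones in WT, 9 in 3NQ and 11 in the ΔTM-labelled library remained past the threshold. In WT, 0 J-domain genes remained. J-domain genes numbered 0 in WT with a pseudocount of 5 or the mutants as the control, and 1 in the ΔTM-labelled library with a pseudocount of 0.1 or any of the 3 rescalings. A pseudocount of 0.1 called 1 heat shock factor gene in 3NQ, and no filter called 1 further HSP70 gene in WT.

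The median of the heat shock factor list became −0.20 (WT) and −0.13 (3NQ) with a pseudocount of 5, −0.21 and −0.067 without a filter, −0.17 (3NQ) at an FPKM of at least 5 and −0.098 (WT) against the mutants. Without a filter, the median of small heat shock proteins was 0 for WT and for the ΔTM-labelled library, and the further HSP70 genes −0.072 in 3NQ. Against the mean of both mutants, WT had medians of −0.029 for the further HSP70 genes, −0.038 for small heat shock proteins, −0.13 for mitochondrial and −0.87 for endoplasmic reticulum chaperones, of which 13 were past 1.5-fold, all from changing the control. The cause of the other changes was not tested. With no replicates and no depth, differences of the size seen in the 10 genes cannot be told from variation between libraries.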
